A study of Mus musculus with 18 samples.

Results

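Tumours of B16F10 mouse melanoma were ordered by how much Ptprc RNA they held, and the 5 tumours with the most (called rich here) were compared with the 5 with the least (called poor). Ptprc encodes CD45, a surface phosphatase found on nearly all nucleated blood-derived cells, and serves as a general marker of leukocytes. All 10 tumours of the study entered the comparison, out of 18 libraries in all. The groups were chosen by a measured value, Ptprc counts over the total counts of the library, and the other 8 libraries, from cultured B16F10 cells, had no part in the choice. Because Ptprc values chose the groups, Ptprc itself is given only as a description. Genes of leukocytes share its source and are described by their values, with no test of their own. Calls and p-values printed for them come from the fits over all genes, and nothing is read from them.

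Each tumour grew in an immunocompetent wild-type C57BL/6 female of 6 to 8 weeks from B16F10 cells that had been infected with lentivirus and selected. The cells carried either an shRNA against Hgs (shHrs), which encodes the endosomal sorting protein Hrs, or a scrambled shRNA (shCTL), both in pLKO.1 with a puromycin marker, and there were 5 tumours of each kind. The series asks, by its title, how Hrs bears on tumour immune evasion. The host had all of its own immune system, the labels name no clone, and whole tumour RNA was sequenced without separating cell types. The labels call the tumours biological repeats.

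Leukocytes reach a tumour from the blood and differ in what they express. Macrophages and monocytes carry receptors for growth factor, complement and antibody. Antigen presenting cells display peptides on MHC class II, while MHC class I is on nearly all cells and rises under interferon. T cells and natural killer cells carry receptor chains, granzymes and perforin. Interferon gamma, a product of the latter cells, induces class II, guanylate-binding proteins and the chemokine CXCL9. In bulk RNA, more cells of a type and more RNA per cell cannot be told apart.

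In order of falling Ptprc the rich tumours were shHrs 4, shCTL 5, shCTL 2, shHrs 1 and shCTL 4, and the poor tumours were shHrs 2, shHrs 5, shHrs 3, shCTL 1 and shCTL 3. Wherever 5 values of a group are printed in a row, they stand in this order. Ptprc counts per 1e6 counts of the library were 32.2, 11.4, 10.8, 9.42 and 8.06 in the rich tumours, from 606, 202, 214, 261 and 142 counts. They were 7.52, 6.06, 5.47, 2.04 and 0.509 in the poor tumours, from 149, 153, 110, 45 and 9 counts. The tumours on either side of the divide, shCTL 4 at 8.06 and shHrs 2 at 7.52, were close, while shHrs 4 alone held 44.8% of the summed Ptprc level of the rich group. The divide thus cut a graded series at its middle, with 1 tumour far above and 2 far below the rest.

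The rich group had 3 shCTL and 2 shHrs tumours, the poor group 2 and 3, and treatment did not go with group (Fisher's exact test, two-sided, p = 1). Total counts were 20.3 ± 4.22 M (SD, n = 5; M for 1e6 counts) in the rich and 21.0 ± 2.83 M (SD, n = 5) in the poor tumours, a difference of -0.665 M (exact permutation test over 252 splits, two-sided, p = 0.746, smallest possible 0.00794). Hgs, at chr11:120467635-120483984 (GRCm38, the longer of 2 annotated entries), read 96.0, 97.3, 108, 106 and 111 CPM (counts per 1e6 of scaled library size) in shCTL tumours 5, 2, 4, 1 and 3, and 29.6, 23.6, 16.9, 15.9 and 20.9 CPM in shHrs tumours 4, 1, 2, 5 and 3. The knockdown was thus visible in every shHrs tumour, and shHrs 4, the tumour with the most Ptprc, was the shHrs tumour with the most Hgs. Between the rich and poor groups, with treatment as a term, Hgs had a log2 fold change of 0.21 ± 0.14 (SE), and of 0.076 without shHrs tumour 4.

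The name leukocyte-rich was checked against 25 other genes found in leukocytes at large. Their mean log2 CPM put the tumours in nearly the same order, with shCTL 4 and shHrs 2 changing places across the divide (ranks 6 and 4). Of the 25 genes, 24 had higher fitted levels in rich tumours, beside 49% of all 13214 genes tested. The median log2 fold change (rich minus poor) was 1.69, against -0.01 over all genes. It was 1.21 without shHrs tumour 4, 1.42 without shCTL tumour 3 and 0.83 without both. Laptm5, a lysosomal protein of blood cells, read 66.9, 51.7, 35.8, 26.05 and 24.004 CPM in the rich tumours and 23.3, 15.5, 17.1, 9.52 and 4.02 CPM in the poor ones. Cd53, a leukocyte tetraspanin, read 29.8, 15.7, 11.8, 9.67 and 8.04 CPM in the rich tumours and 8.59, 6.31, 7.501, 4.33 and 1.46 CPM in the poor ones, and Tyrobp, the adaptor DAP12 of myeloid and natural killer receptors, read 33.2, 13.7, 14.7, 9.71 and 7.75 CPM against 8.33, 4.62, 5.29, 3.17 and 0.641 CPM. Cd48, a SLAM family receptor, Rac2, a GTPase of blood cells, and Vav1, an exchange factor, had log2 fold changes of 2.15, 2.13 and 2.23. Of the 25 genes edgeR called 8 higher at an adjusted p under 0.05, beside 0.931% of all genes. Laptm5, Cd48 and Hcls1 had no overlap between the groups, beside 1.54% of all genes, while for 20 others shHrs 2 lay above the lowest rich tumour. Arhgdib went the other way, at 219.7, 436, 369, 380.1 and 363 CPM against 433, 403, 343, 448 and 427 CPM, and cultured B16F10 cells held it too, at 75.1 to 120.2 CPM.

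**Figure D1:**
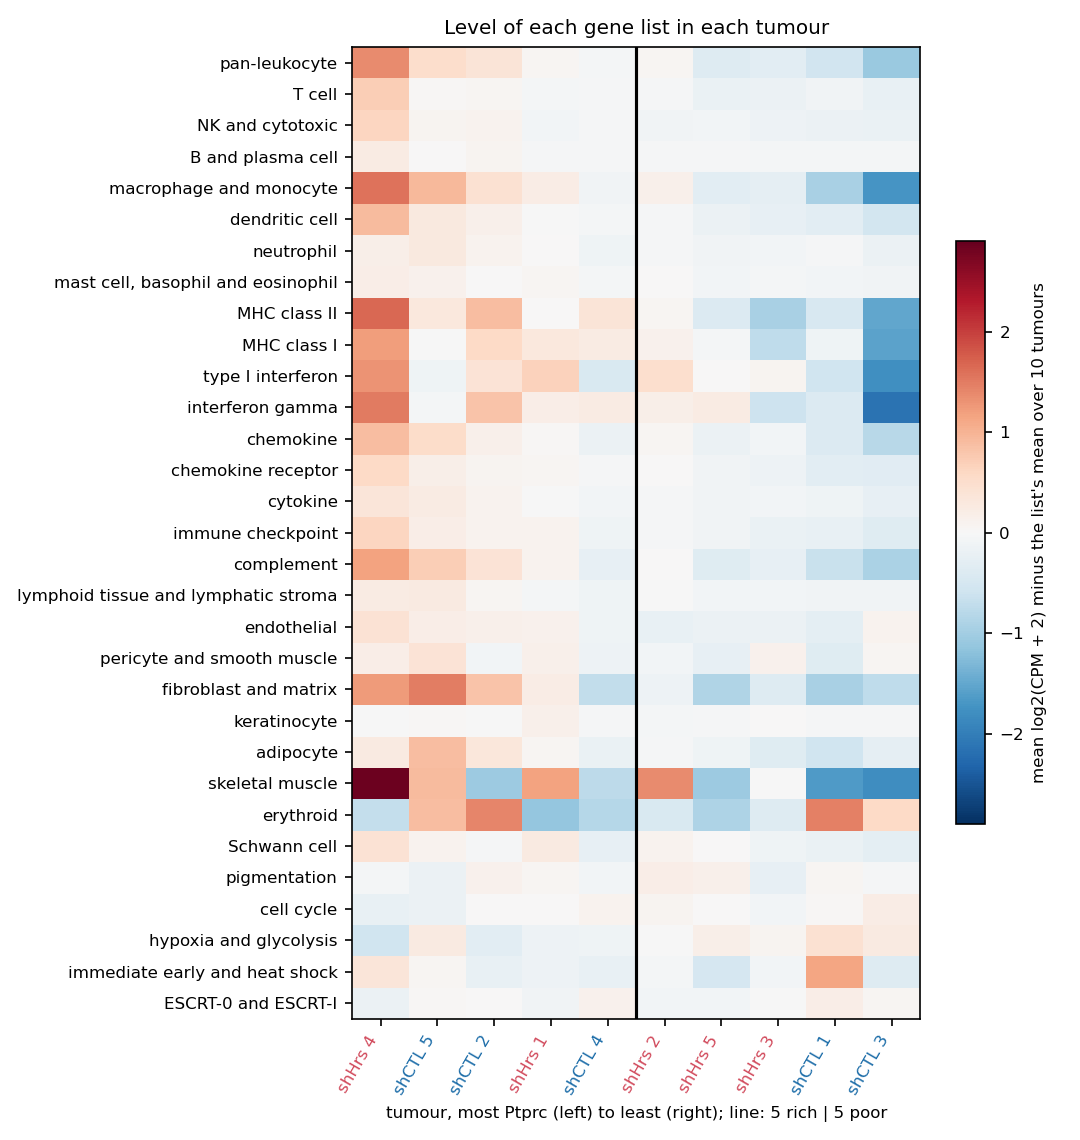
Level of each gene list (rows) in each tumour (columns, from most to least Ptprc, shCTL in blue and shHrs in red lettering), as the mean of log2(CPM + 2) over the list minus the list's mean over the 10 tumours. Macrophage and MHC class II lists pass broadly from red at the left to blue at the right. The interferon gamma and skeletal muscle lists do so with jumps between neighbouring tumours, and pigmentation stays near 0.

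Of all genes tested, 49% had a positive log2 fold change. edgeR's quasi-likelihood F test with treatment as a term and Benjamini-Hochberg adjustment called 123 of 13214 genes higher (0.931%) and 9 lower (0.0681%) in rich tumours at an adjusted p under 0.05. Such a p tells of an association with the Ptprc order in these 10 tumours and not of a labelled condition. The called genes had adjusted p from 0.0494 to 0.0496, just under the threshold, and the calls ended in many other fits: edgeR left 0 when any 1 of 8 tumours was left out (all but shCTL 4 and shHrs 1), with 1220 to 1771 genes higher at an unadjusted p under 0.05. Without shHrs tumour 4 the median log2 fold change of the 123 genes was 1.70, and without shCTL tumour 3 it was 1.84. It was 1.96 with all tumours and 1.33 without both. The 123 genes were chosen for their differences in these same tumours, so such medians are no separate support. Of the 123 genes, 6 reached the count minimum of the filter in no poor tumour, so a difference was built into their selection. At an unadjusted p under 0.05, 1805 genes (13.7%) were higher and 935 (7.08%) lower, and DESeq2 at an adjusted p under 0.05 called 909 higher (6.88%) and 248 lower (1.88%). Values in each tumour therefore carry the account below, and a call is named only beside them.

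Macrophage and monocyte genes had higher mean levels in rich tumours, though most overlapped with the poor ones. All 24 of 24 genes were tested and had positive log2 fold changes, with a median of 2.04; 8 were called and 3 had no overlap, beside 0.931% and 1.54% of all genes. Their summed level was 1391, 813, 575, 485 and 384 CPM in the rich tumours and 441, 299, 310.2, 147 and 54.7 CPM in the poor ones. The 2 shCTL tumours with least Ptprc were lowest, and shHrs 2 lay above shCTL 4.

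Csf1r, the receptor for the macrophage growth factor CSF1, read 48.9, 31.3, 24.1, 18.6 and 16.1 CPM in the rich tumours and 14.9, 10.7, 10.9, 3.61 and 1.81 CPM in the poor ones. Adgre1 (Emr1 in the table), which encodes the F4/80 antigen, read 18.7, 16.7, 14.3, 11.9 and 9.01 CPM in the rich tumours and 7.3002, 6.07, 5.59, 2.64 and 0.525 CPM in the poor ones. Mpeg1, a pore-forming protein of phagocytes, read 114, 39.6, 51.4, 38.2 and 37.9 CPM in the rich tumours and 31.0003, 24.1, 23.97, 12.3 and 3.15 CPM in the poor ones. These 3 genes separated the groups fully, and each fell nearly stepwise along the Ptprc order. Their log2 fold changes were 2.21, 2.07 and 1.97. Itgam, the integrin CD11b of myeloid cells, read 19.99, 13.7, 9.52, 7.8003 and 5.82 CPM in the rich tumours and 7.45, 7.08, 4.95, 3.37 and 0.991 CPM in the poor ones, and here shHrs 2 and shHrs 5 lay above shCTL 4.

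C1qa, a chain of complement C1q that tissue macrophages make, read 200.1, 98.4, 72.3, 49.9 and 44.6 CPM in the rich tumours and 50.3, 21.6, 28.5, 13.8 and 3.32 CPM in the poor ones. Mrc1, the mannose receptor CD206, read 53.9, 53.2, 21.6, 23.5 and 14.7 CPM in the rich tumours and 25.4, 17.8, 19.2, 7.36 and 3.44 CPM in the poor ones. For both, shHrs 2 reached the level of the lower rich tumours, so the groups overlapped. C1qc, another C1q chain, and Ms4a7, a membrane protein of macrophages, were among the 8 called, with log2 fold changes of 2.24 and 2.55. Ccr2, the receptor that draws monocytes from blood, read 26.3, 6.71, 3.699, 3.78 and 2.96 CPM in the rich tumours and 4.83, 2.41, 2.11, 0.914 and 0.175 CPM in the poor ones, and Ly6c2, a marker of inflammatory monocytes, read 15.2, 1.66, 0.395, 0.635 and 0.684 CPM against 0.668, 0.804, 0.539, 0.481 and 0 CPM. In these monocyte genes shHrs 4 stood well above all other tumours, and Ly6c2 was at 1.66 CPM or less in the other 9. Arg1, an arginase of some tumour macrophages, had its highest value in shCTL 5, at 7.98, 25.1, 9.37, 5.44 and 2.79 CPM against 6.68, 10.8, 6.91, 4.86 and 2.45 CPM.

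Every macrophage gene but Cd68, Fcgr4 and Lyz2 stayed under 1 CPM in all 8 cultures, and Emr1, C1qa, Mrc1, Mpeg1, Ccr2 and Ly6c2 had 0 counts in every culture. The median log2 fold change of the list was 1.81 without shHrs tumour 4, 1.69 without shCTL tumour 3 and 1.19 without both. Per doubling of Ptprc the median change was 0.87 log2 units within shCTL tumours and 0.90 within shHrs tumours. The values were positive inside both treatments, and their difference was not tested for the list.

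Csf1, which encodes the ligand of Csf1r, read 44.03, 30.7, 24.1, 31.9 and 17.7 CPM in the rich tumours and 22.6, 19.5, 16.96, 11.5 and 11.1 CPM in the poor ones, with a log2 fold change of 1.02 ± 0.16 (SE). Unlike the receptor, the ligand was abundant in cultured B16F10 cells, at 24.8 to 269 CPM. Its groups overlapped, since shHrs 2 and shHrs 5 exceeded shCTL 4.

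MHC class II genes showed the largest difference among the immune lists with more than 3 tested genes. The 7 tested of 11 genes had log2 fold changes from 1.40 to 2.99, with a median of 2.77; 2 were called (H2-Ab1 and H2-Eb1) and 2 had no overlap (H2-Eb1 and Cd74), beside 0.931% and 1.54% of all genes. H2-Eb1, a class II beta chain, read 198, 45.2, 76.5, 25.3 and 39.8 CPM in the rich tumours and 24.99, 13.5, 5.88, 10.4 and 2.22 CPM in the poor ones. Cd74, the invariant chain that escorts class II molecules, read 554, 151, 274, 90.5 and 143 CPM in the rich tumours and 89.2, 44.02, 30.2, 41.8 and 5.77 CPM in the poor ones. H2-Ab1, the other classical beta chain, read 231, 59.5, 96.8, 30.2 and 46.4 CPM in the rich tumours and 35.01, 15.1, 9.07, 12.9 and 3.03 CPM in the poor ones. H2-Eb1 and Cd74 separated the groups by a small margin, 25.3 against 25.0 CPM and 90.5 against 89.2 CPM.

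Ciita, the master activator of class II transcription, read 7.41, 2.99, 4.68, 1.41 and 3.14 CPM in the rich tumours and 2.26, 1.93, 0.637, 1.06 and 0.175 CPM in the poor ones. H2-DMb1, a subunit of the peptide loader DM, read 47.7, 14.4, 38.1, 19.9 and 29.1 CPM in the rich tumours and 13.5, 13.1, 5.59, 21.5 and 2.91 CPM in the poor ones, and here shCTL 1 lay above shCTL 5 and shHrs 1. The 4 genes not tested for low counts (H2-Eb2, H2-DMb2, H2-Oa and H2-Ob) peaked in shHrs 4, at 1.28, 1.38, 0.409 and 2.25 CPM. In cultures H2-Ab1, H2-Aa and H2-Eb1 stayed at or under 0.219 CPM. The list's median was 2.08 without shHrs tumour 4, 2.42 without shCTL tumour 3 and 1.32 without both.

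The class II genes sit together on chromosome 17 and are known to share a promoter layout in which a Y box lies near the start site. The 150 bases before a RefSeq start (GRCm38.p6) of 3 of them are shown, with the Y box core GATTGG or its reverse CCAATC in capitals. Where a gene had several windows, the first with a match is shown. The windows are chr17:34287824-34287973 on the minus strand for H2-Aa, chr17:34305717-34305866 on the plus strand for H2-Eb1 and chr17:34153041-34153190 on the plus strand for H2-DMb1, each printed 5′ to 3′ along the gene.
H2-Aa: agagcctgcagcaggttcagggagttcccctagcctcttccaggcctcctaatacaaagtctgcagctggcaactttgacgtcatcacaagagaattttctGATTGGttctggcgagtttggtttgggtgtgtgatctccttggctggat
H2-Eb1: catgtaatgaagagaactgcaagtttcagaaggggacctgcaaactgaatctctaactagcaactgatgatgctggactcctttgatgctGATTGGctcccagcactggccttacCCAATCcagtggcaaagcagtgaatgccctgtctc
H2-DMb1: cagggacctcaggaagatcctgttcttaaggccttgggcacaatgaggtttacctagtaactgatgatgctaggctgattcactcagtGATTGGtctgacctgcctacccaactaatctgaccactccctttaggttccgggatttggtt
The letters were present in a window of 7 of the 8 genes of this list that had one, both strands searched. Of all 32851 promoter windows of the same length, 10.94% held them. A gene counted if any of its windows matched, while the share is per window, so they cannot be compared directly. A match is a description of letters and not a tested site.

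**Figure D2:**
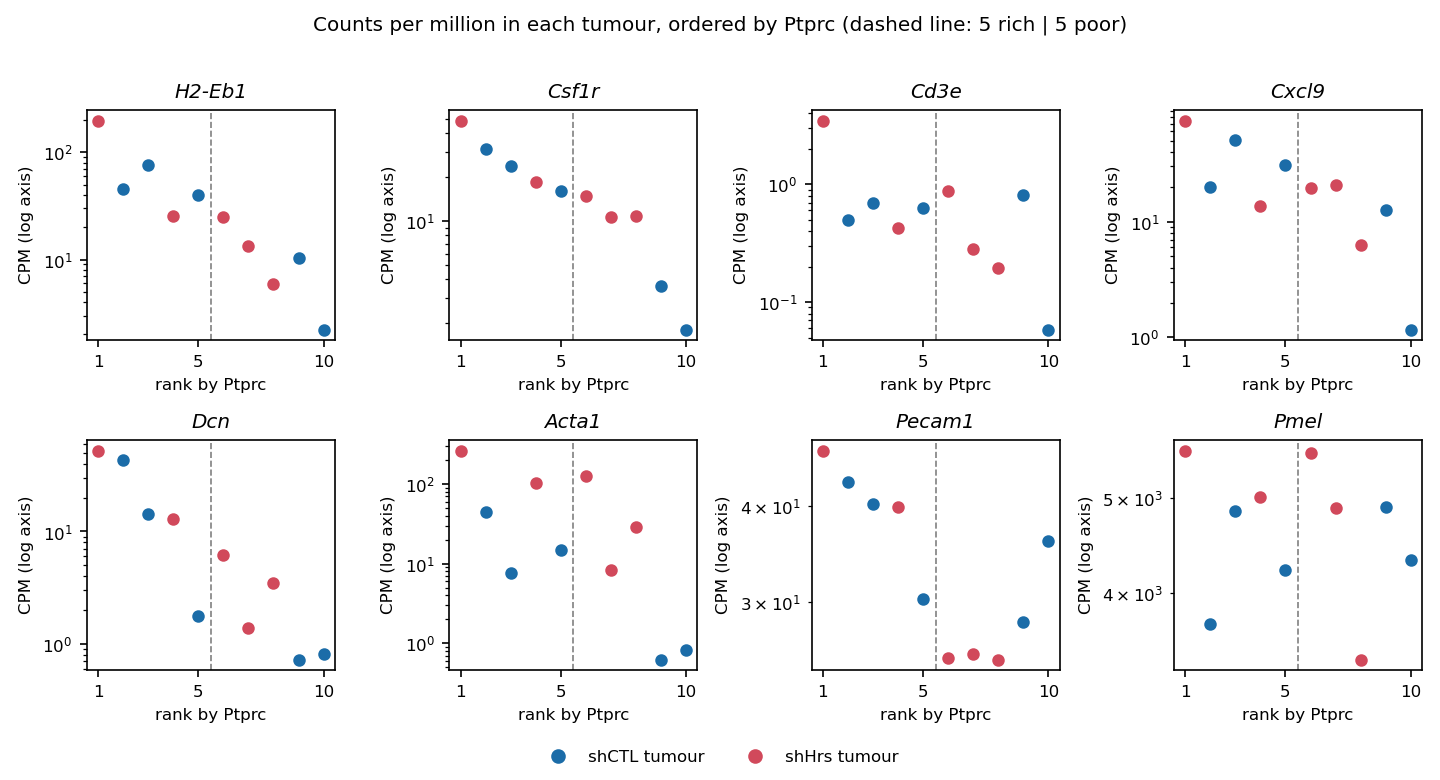
CPM (log axis) of 8 genes in each tumour (points; shCTL blue, shHrs red), ordered by Ptprc from most (rank 1) to least (rank 10), with a dashed line between the rich and poor groups. H2-Eb1, Csf1r and Dcn fall along the order, Cd3e is high in shHrs 4 alone, Acta1 follows single tumours and Pmel shows no order.

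T cell genes were near the limit of detection. Genes so low could pass the count filter mainly through the rich tumours, as Cd2 and Zap70 did, which favoured positive values in advance. Of 20 genes in the table, 8 had enough counts to be tested; all 8 had positive log2 fold changes with a median of 1.64, and 0 were called by edgeR, 4 at an unadjusted p under 0.05 (13.7% of all genes), and 3 by DESeq2 (6.88% of all genes). Cd3e, a chain of the T cell receptor complex, read 3.48, 0.499, 0.6904, 0.424 and 0.627 CPM in the rich tumours and 0.874, 0.281, 0.196, 0.817 and 0.0583 CPM in the poor ones. Cd8a, the coreceptor of cytotoxic T cells, read 4.96, 0.6098, 1.68, 0.282 and 0.798 CPM in the rich tumours and 0.3599, 0.362, 0.0981, 0.192 and 0 CPM in the poor ones and was not tested. A count of 0 here allows up to 0.108 to 0.170 counts per 1e6, depending on the library. For both genes shHrs 4 was highest. For Cd3e the other 4 rich tumours overlapped the poor group, while for Cd8a only shHrs 1 did.

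Cd4, the coreceptor of helper T cells that macrophages can also carry, read 3.22, 1.39, 0.641, 1.02 and 1.14 CPM in the rich tumours and 0.925, 0.402, 0.539, 0.144 and 0.0583 CPM in the poor ones. Foxp3, the factor of regulatory T cells, read 3.48, 1.28, 1.23, 1.38 and 0.912 CPM in the rich tumours and 1.697, 0.925, 1.27, 1.73 and 1.63 CPM in the poor ones, with a log2 fold change of 0.19 ± 0.37 (SE). Without shHrs tumour 4 the value for Foxp3 was -0.29, and its level in cultures reached 1.64 CPM. The T cell list's median was 0.64 without shHrs tumour 4, 1.45 without shCTL tumour 3 and 0.39 without both.

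Natural killer and cytotoxic genes were also low, and passing the count filter could likewise favour positive values in advance. Only 3 of 16 were tested, with a median of 2.48; 0 were called by edgeR, 3 at an unadjusted p under 0.05 (13.7% of all genes), and 2 by DESeq2 (6.88% of all genes). Gzmb, the killing protease granzyme B, read 5.98, 1.497, 1.43, 0.918 and 0.684 CPM in the rich tumours and 0.617, 0.603, 0.0981, 0.337 and 0 CPM in the poor ones. Nkg7, a granule protein of killer cells, read 5.88, 0.887, 1.48, 0.494 and 0.912 CPM in the rich tumours and 0.617, 0.482, 0.196, 0.529 and 0 CPM in the poor ones. Prf1, the pore former perforin, read 1.38, 0.721, 0.493, 0.247 and 0.456 CPM against 0.308, 0.241, 0.0981, 0.144 and 0 CPM, and Ifng, interferon gamma itself, read 0.716, 0.0554, 0.0986, 0 and 0.05702 CPM against 0, 0.161, 0, 0 and 0 CPM; neither had enough counts for the test. Gzmb and Eomes, a factor of killer cells, separated the groups, 2 of the 3 tested genes, beside 1.54% of all genes. No culture had a count of Gzmb, Prf1 or Ifng. The list's median was 1.23 without shHrs tumour 4, 2.21 without shCTL tumour 3 and 0.66 without both.

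B cell genes were low as well, with the same limit from the count filter. Ms4a1 (CD20) and Pax5 were under 0.5 CPM in every tumour, and 2 of 12 genes were tested, with a median of 1.03 (0.62 without shHrs tumour 4, 1.03 without shCTL tumour 3 and 0.47 without both); 0 were called by edgeR, 1 at an unadjusted p under 0.05 (13.7% of all genes), and 1 by DESeq2 (6.88% of all genes). Cd22, an inhibitory receptor of B cells, read 3.94, 0.6098, 1.58, 0.741 and 0.684 CPM in the rich tumours and 1.75, 0.603, 0.441, 0.0481 and 0.233 CPM in the poor ones, a log2 fold change of 1.81. Cd79a, a chain of the B cell receptor, read 1.89, 0.665, 1.33, 1.06 and 1.03 CPM in the rich tumours and 0.874, 0.804, 0.882, 1.44 and 0.991 CPM in the poor ones, with a log2 fold change of 0.26 ± 0.32 (SE). The values of both genes overlapped between the groups, and shHrs 4 was the highest tumour for each.

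Dendritic cell genes were higher in rich tumours for 9 of the 10 tested, with a median of 1.20; 0 were called by edgeR, 7 at an unadjusted p under 0.05 (13.7% of all genes), and 5 by DESeq2 (6.88% of all genes). Low genes among them could pass the count filter mainly through the rich tumours, which favoured positive values in advance. The list's summed level was 31.7 to 108 CPM in the rich and 10.1 to 30.1 CPM in the poor tumours, which did not overlap. Irf8, a factor of dendritic cells and monocytes, read 39.02, 15.6, 22.5, 12.8 and 18.8 CPM in the rich tumours and 12.2, 11.8, 7.84, 12.02 and 2.74 CPM in the poor ones, and Cd83, an activation marker, read 8.39, 4.44, 3.45, 3.53 and 3.19 CPM in the rich tumours and 1.95, 1.61, 1.32, 0.577 and 0 CPM in the poor ones. Both separated the groups, 2 of the 10 tested genes, beside 1.54% of all genes. The list's median was 0.91 without shHrs tumour 4, 1.33 without shCTL tumour 3 and 0.69 without both. Clec10a, a lectin of dendritic cells and macrophages, was concentrated in shHrs 4 and shCTL 5, at 21.7, 15.7, 3.06, 2.15 and 0.684 CPM against 2.11, 0.965, 1.42, 0.385 and 0.117 CPM. Xcr1 and Flt3, which define cross-presenting and other dendritic cells, were too low to test and peaked in shHrs 4 at 2.301 and 1.89 CPM.

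Granulocyte genes were low, with exceptions, and the same limit from the count filter applied to them. Mmp9, a matrix protease of neutrophils and other cells, read 1.38, 11.5, 3.21, 3.04 and 0.798 CPM in the rich tumours and 1.34, 0.603, 0.392, 0.288 and 0 CPM in the poor ones, with shCTL 5 far above the rest. The summed level of the 15 neutrophil genes was 13.7, 21.7, 10.4, 7.59 and 3.53 CPM in the rich tumours and 5.398, 3.698, 4.36, 5.43 and 2.098 CPM in the poor ones. S100a8 was at 0.05702 to 0.665 CPM in the rich and 0.161 to 0.673 CPM in the poor tumours, and Cxcr2, Ngp and Ltf stayed under 0.2 CPM in all 10 tumours. Csf3r, the granulocyte colony stimulating factor receptor that monocytes share, read 6.14, 3.05, 2.22, 1.69 and 1.08 CPM in the rich tumours and 1.18, 0.683, 0.833, 0.625 and 0.175 CPM in the poor ones. The 4 tested of 15 neutrophil genes had a median of 1.72 (1.44 without shHrs tumour 4, 1.502 without shCTL tumour 3 and 1.05 without both), and Csf3r was the 1 called, beside 0.931% of all genes. None of the 10 mast cell, basophil and eosinophil genes had enough counts, and their summed level was 0.456 to 4.76 CPM in the rich and 0.0583 to 1.59 CPM in the poor tumours. Of the genes of lymphoid tissue and its vessels, Glycam1, Ccl21a, Ccl19 and Chst4 had 0 counts in every tumour, and the 3 tested of 11 had a median of 0.44 (0.15 without shHrs tumour 4, 0.39 without shCTL tumour 3 and 0.16 without both).

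**Figure D3:**
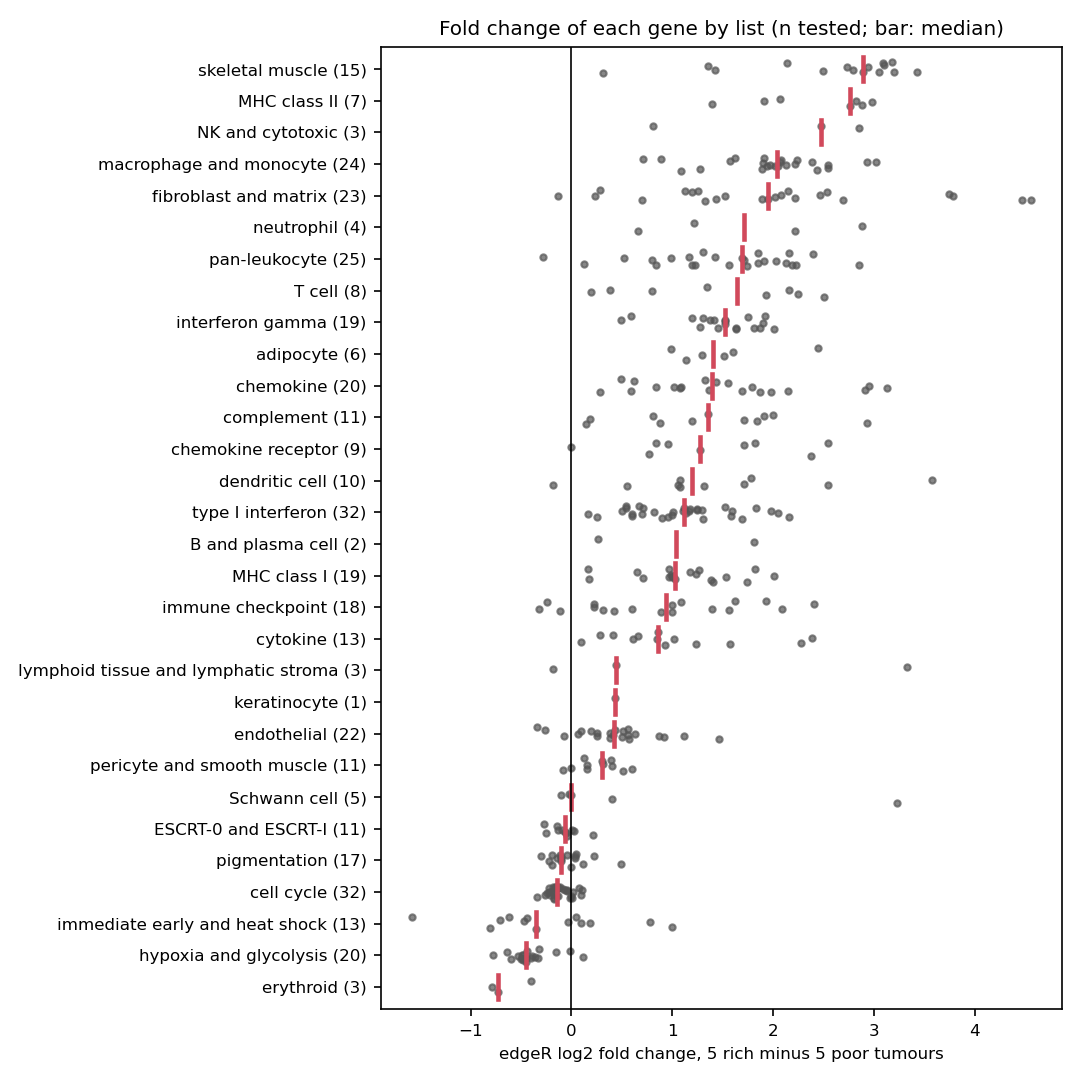
edgeR log2 fold change (rich minus poor tumours) of every tested gene (grey points), by list, with the list's median as a red bar and the number of genes tested in brackets. MHC class II and skeletal muscle lists lie farthest to the right, pigmentation and cell cycle lists cluster near 0, and hypoxia and glycolysis genes lie left of 0 with 1 exception.

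Interferon responsive genes had higher mean levels in rich tumours, with much overlap. All 19 tested of 21 interferon gamma genes had positive fold changes, with a median of 1.53 and 1 call (Serping1), beside 0.931% of all genes. Cxcl9, the chemokine that draws CXCR3-bearing T cells, read 74.5, 20.1, 50.8, 13.6 and 30.6 CPM in the rich tumours and 19.5, 20.9, 6.32, 12.5 and 1.17 CPM in the poor ones. Gbp2, a guanylate-binding protein, read 211, 70.4, 169, 80.8 and 118 CPM in the rich tumours and 71.4, 105, 35.3, 58.8 and 5.48 CPM in the poor ones, and Irf1, a transcription factor, read 126, 35.9, 64.3, 46.7 and 50.8 CPM in the rich tumours and 42.002, 47.2, 23.9, 25.96 and 12.7 CPM in the poor ones. For these genes shCTL 3 was the lowest tumour and shHrs 4 the highest, while shHrs 2 and shHrs 5 lay among the rich tumours. The list's median was 1.28 without shHrs tumour 4, 1.17 without shCTL tumour 3 and 0.61 without both.

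Serping1, the C1 esterase inhibitor, which matrix cells also make, read 49.3, 53.2, 35.6, 16.5 and 12.9 CPM in the rich tumours and 11.98, 5.83, 8.09, 8.56 and 9.501 CPM in the poor ones, with no overlap and a log2 fold change of 1.92 ± 0.39 (SE). Its order differed from that of Gbp2: shCTL 3 was not the lowest tumour.

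The type I interferon list had 32 tested genes, all positive, with a median of 1.11 and 2 calls (Mx1 and Stat2), beside 0.931% of all genes; none of the 32 was free of overlap. The median was 0.92 without shHrs tumour 4, 0.85 without shCTL tumour 3 and 0.56 without both. Mx1, an antiviral GTPase, read 19.4, 4.77, 7.94, 9.67 and 3.19 CPM in the rich tumours and 5.81, 4.62, 5.54, 1.88 and 0.758 CPM in the poor ones. Isg15, a ubiquitin-like protein, read 81.3, 16.2, 19.1, 33.9 and 13.4 CPM in the rich tumours and 37.02, 16.4, 33.2, 10.1 and 3.32 CPM in the poor ones. Here shHrs 4 was highest and shCTL 3 lowest. Stat2, a signal carrier of type I interferon, had a log2 fold change of 1.01 ± 0.20 (SE). For Isg15 the value of shHrs 2 (37.02 CPM) exceeded that of all 3 rich shCTL tumours. Cultured cells also held Isg15, at 3.31 to 171 CPM.

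MHC class I and its loading machinery were higher for all 19 tested of 21 genes, with a median of 1.03; 0 were called by edgeR, 17 at an unadjusted p under 0.05 (13.7% of all genes), and 7 by DESeq2 (6.88% of all genes), and H2-M3 alone had no overlap, beside 1.54% of all genes. The median was 0.82 without shHrs tumour 4, 0.89 without shCTL tumour 3 and 0.41 without both. B2m, the light chain, read 2820.5, 1064, 1693, 1789.7 and 1518 CPM in the rich tumours and 1626, 1204, 689.6, 1229.6 and 242 CPM in the poor ones. H2-K1, a heavy chain, read 1030.3, 508, 746, 585 and 541 CPM in the rich tumours and 446, 441, 258, 519 and 143 CPM in the poor ones. Psmb8, a subunit of the immunoproteasome, read 179, 45.6, 99.7, 66.2 and 69.3 CPM in the rich tumours and 51.98, 39.9998, 10.4, 29.4 and 1.46 CPM in the poor ones. The groups overlapped for these 3, with shHrs 3 and shCTL 3 low. Reads of H2-K1 and H2-D1 may be shared among close relatives, and H2-Q6 had 0 counts in every library, so single class I genes are uncertain.

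Chemokines were higher for all 20 tested of 29, with a median of 1.40; 0 were called by edgeR, 17 at an unadjusted p under 0.05 (13.7% of all genes), and 8 by DESeq2 (6.88% of all genes). The count filter could again favour positive values of low genes in advance. Cxcl16 and Cx3cl1 had no overlap, beside 1.54% of all genes. The median was 1.13 without shHrs tumour 4, 1.20 without shCTL tumour 3 and 0.70 without both. Ccl8, a monocyte attractant made by macrophages, read 80.1, 31.3, 17.3, 9.25 and 8.21 CPM in the rich tumours and 13.1, 6.39, 6.18, 2.55 and 0.3497 CPM in the poor ones. Cxcl16, the ligand of CXCR6, read 28.2, 9.87, 14.5, 9.0003 and 7.36 CPM in the rich tumours and 5.91, 4.18, 6.42, 3.03 and 0.3497 CPM in the poor ones. Ccl5, an attractant of T cells and monocytes, read 28.7, 7.43, 7.45, 6.11 and 7.298 CPM in the rich tumours and 11.98, 5.07, 11.3, 4.28 and 1.52 CPM in the poor ones, and cultures held it at 1.12 to 45.7 CPM. Cxcl10, a partner of Cxcl9 at CXCR3, read 205, 66.5, 77.5, 113 and 89.9 CPM in the rich tumours and 90.02, 104, 97.8, 77.03 and 35.2 CPM in the poor ones, with a cultured range of 5.09 to 209.8 CPM. Cxcl9 reached at most 0.342 CPM in cultures, unlike Cxcl10.

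Among receptors, Cx3cr1, the fractalkine receptor of monocytes, read 5.16, 1.77, 2.86, 4.2001 and 1.77 CPM in the rich tumours and 2.47, 0.844, 0.833, 0.144 and 0.233 CPM in the poor ones. Its ligand Cx3cl1 read 3.63, 3.77, 4.64, 3.0001 and 2.85 CPM in the rich tumours and 2.78, 2.69, 2.45, 1.78 and 1.05 CPM in the poor ones. Cxcr3, the receptor of Cxcl9 and Cxcl10, did not follow the order, at 4.19, 4.88, 5.28, 3.92 and 7.75 CPM against 5.04, 4.02, 4.95, 4.86 and 5.54 CPM. Of the 9 tested receptors of 18, 8 were positive and 1 was called (Cx3cr1), beside 0.931% of all genes; their median was 1.28 (1.09 without shHrs tumour 4, 1.24 without shCTL tumour 3 and 0.75 without both). Cytokine genes were positive for all 13 tested of 27, with a median of 0.86 and 2 calls, Csf1 and Ebi3, beside 0.931% of all genes. The median was 0.56 without shHrs tumour 4, 0.75 without shCTL tumour 3 and 0.40 without both. Low genes of the receptor and cytokine lists could pass the count filter mainly through the rich tumours, as Ltb did. Positive values were thereby favoured in advance. Ebi3, a subunit of interleukins 27 and 35, read 3.99, 1.33, 1.38, 0.988 and 0.912 CPM in the rich tumours and 0.823, 0.482, 0.637, 0.2404 and 0.0583 CPM in the poor ones, with no overlap.

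Of 23 checkpoint genes, 18 were tested and 15 were positive, with a median of 0.94; the 2 calls, beside 0.931% of all genes, were Vsir and Entpd1. Vsir, which encodes VISTA and is listed as 4632428N05Rik, read 21.6, 14.3, 11.2, 7.2002 and 5.36 CPM in the rich tumours and 5.14, 3.095, 4.02, 1.49 and 0.816 CPM in the poor ones. Entpd1, the ectoenzyme CD39, read 16.9, 7.98, 11.2, 9.88 and 7.13 CPM in the rich tumours and 6.32, 5.27, 3.33, 2.45 and 2.45 CPM in the poor ones. Both separated the groups, 2 of the 18 tested genes, beside 1.54% of all genes. Macrophages and other myeloid or vascular cells are known to carry them. Cd274, which encodes PD-L1, read 53.1, 18.4, 32.5, 28.6 and 18.99 CPM in the rich tumours and 23.6, 18.6, 12.1, 17.8 and 8.69 CPM in the poor ones, with a log2 fold change of 1.00 ± 0.27 (SE) and an edgeR adjusted p of 0.0768. Pdcd1, which encodes PD-1, read 2.51, 0.6098, 0.838, 0.247 and 0.5702 CPM in the rich tumours and 0.771, 0.402, 0.245, 0.529 and 0 CPM in the poor ones. Cd276 and Pvr had negative fold changes, -0.12 and -0.32. Low genes such as Pdcd1 could pass the count filter mainly through the rich tumours, which favoured positive values in advance. The list's median was 0.42 without shHrs tumour 4, 0.97 without shCTL tumour 3 and 0.54 without both.

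Complement genes were positive for all 11 tested of 12, with a median of 1.35 and 2 calls (Cfb and C3ar1), beside 0.931% of all genes. The median was 1.34 without shHrs tumour 4, 1.28 without shCTL tumour 3 and 0.92 without both. C3ar1, the receptor for C3a on myeloid cells, read 32.98, 16.2, 11.9, 13.3 and 9.69 CPM in the rich tumours and 10.8, 7.92, 8.43, 2.596 and 0.933 CPM in the poor ones. Cfb, factor B of the alternative pathway, read 75.6, 35.8, 24.5, 21.6 and 13.6 CPM in the rich tumours and 18.8, 11.9, 13.04, 5.82 and 6.88 CPM in the poor ones, and C3, the central component, read 48.6, 33.04, 17.8, 4.84 and 4.85 CPM in the rich tumours and 4.58, 3.46, 3.73, 2.12 and 2.098 CPM in the poor ones. For C3 the groups did not overlap, and shHrs 4, shCTL 5 and shCTL 2 stood apart from the other 7 tumours.

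Markers of other host tissue differed along the Ptprc order too, to different degrees. Their part in the leukocyte result was not tested. Fibroblast and matrix genes were positive for 22 of 23, with a median of 1.95; 0 were called by edgeR, 20 at an unadjusted p under 0.05 (13.7% of all genes), and 20 by DESeq2 (6.88% of all genes). Their summed level was 4011, 5954, 3793, 2797 and 1566 CPM in the rich tumours and 2107, 1711, 2260.3, 1568 and 1731 CPM in the poor ones. Dcn, the matrix proteoglycan decorin, read 52.7, 43.1, 14.2, 12.8 and 1.77 CPM in the rich tumours and 6.22, 1.37, 3.48, 0.721 and 0.816 CPM in the poor ones. Col1a1, a chain of collagen I, read 648, 1224, 814, 286 and 122 CPM in the rich tumours and 212, 103, 173, 126 and 152 CPM in the poor ones, with an adjusted p of 0.0722 by edgeR. Dpt, dermatopontin of the dermis, read 23.7, 16.8, 7.15, 2.58 and 0.399 CPM in the rich tumours and 1.39, 0.281, 0.981, 0.2404 and 0.0583 CPM in the poor ones. In all 3 shHrs 4, shCTL 5 and shCTL 2 were highest and shHrs 1 also lay above every poor tumour, while shCTL 4 read like the poor tumours. The list's median was 1.72 without shHrs tumour 4, 1.88 without shCTL tumour 3 and 1.65 without both.

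Endothelial genes differed less. Of 22, 19 were positive with a median of 0.42; 0 were called by edgeR, 12 at an unadjusted p under 0.05 (13.7% of all genes), and 8 by DESeq2 (6.88% of all genes). Cdh5, the junction protein VE-cadherin, read 50.2, 45.02, 45.6, 42.4 and 35.2 CPM in the rich tumours and 29.8, 32.2, 30.9, 29.4 and 39.6 CPM in the poor ones, an edgeR log2 fold change of 0.43 ± 0.12 (SE) with an adjusted p of 0.0729. Pecam1 (CD31) read 47.1, 42.97, 40.2, 39.8 and 30.2 CPM in the rich tumours and 25.3, 25.7, 25.2, 28.2 and 35.97 CPM in the poor ones. For both genes shCTL 3, the tumour with least Ptprc, was the highest of the poor group, and per doubling of Ptprc the list's median change was 0.10 log2 units. Pericyte and smooth muscle genes had a median of 0.30 over 11 tested, and Pdgfrb, the pericyte growth factor receptor, read 26.7, 31.4, 19.5, 28.2 and 16.6 CPM in the rich tumours and 19.1, 18.3, 24.9, 12.8 and 21.7 CPM in the poor ones.

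Skeletal muscle genes were higher along the Ptprc order and varied widely between neighbouring tumours. All 15 were positive, with a median of 2.89; 0 were called by edgeR, 13 at an unadjusted p under 0.05 (13.7% of all genes), and 9 by DESeq2 (6.88% of all genes). Acta1, the actin of skeletal muscle, read 262, 44.5, 7.55, 104 and 14.7 CPM in the rich tumours and 126, 8.32, 28.5, 0.625 and 0.816 CPM in the poor ones. Its highest values were in shHrs 4, shHrs 2 and shHrs 1, across the divide, and its lowest in shCTL 1 and shCTL 3. The summed level of the list was 1254, 296, 43.9, 387 and 68.3 CPM in the rich tumours and 457, 53.9, 151, 23.7 and 15.1 CPM in the poor ones. Per doubling of Ptprc the list's median change was 1.42 log2 units, 1.96 within shCTL and 1.42 within shHrs tumours, above the 0.88 of macrophage and 1.26 of class II genes. Slopes were called for 10 of the 15, beside 5.59% of all genes. The list's median was 2.79 without shHrs tumour 4, 2.68 without shCTL tumour 3 and 2.09 without both. Cultured cells held Acta1 at no more than 1.02 CPM.

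Adipocyte genes had a median of 1.40 over 6 tested; Fabp4, a lipid carrier of fat and vessel cells, read 90.5, 99.96, 62.4, 36.7 and 35.5 CPM in the rich tumours and 29.8, 29.9, 24.9, 23.4 and 38.4 CPM in the poor ones. Red cell genes did not follow the order: Hbb-bs (Beta-s in the table), a beta globin, read 74.3, 745, 1412, 25.7 and 53.5 CPM in the rich tumours and 137, 48.4, 114, 1742 and 464 CPM in the poor ones, and the list's median was -0.73 over 3 tested. Globin was high in shCTL 1, shCTL 2, shCTL 5 and shCTL 3, on both sides of the divide. Keratinocyte genes were near 0, at 0.684 to 3.64 CPM in the rich and 0.3599 to 1.18 CPM in the poor tumours summed.

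Melanoma cell genes showed no order along Ptprc. Of 17 pigmentation genes 6 were positive, with a median of -0.10, and 0 were called by edgeR or DESeq2. At an unadjusted p under 0.05 by edgeR, 1 was higher (13.7% of all genes) and 1 lower (7.08% of all genes). Pmel, the melanosome fibre protein, read 5598, 3709, 4854, 5016 and 4218 CPM in the rich tumours and 5559, 4885, 3412, 4899 and 4318 CPM in the poor ones, a log2 fold change of 0.04 ± 0.14 (SE). Tyr, tyrosinase, read 504, 554, 721, 645 and 702 CPM in the rich tumours and 823, 789, 601, 709 and 637 CPM in the poor ones. Mlana, the melanosomal antigen MART-1, read 1686, 805, 893, 1128 and 938 CPM in the rich tumours and 1365, 1059.7, 962, 841 and 769.8 CPM in the poor ones, with shHrs 4 highest. Genes of the ESCRT-0 and ESCRT-I complexes, to which Hgs belongs, had a median of -0.06 over 11 tested, Schwann cell genes -0.01 over 5, and immediate early and heat shock genes -0.35 over 13.

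Proliferation genes leaned slightly lower. Of 32 cell cycle genes 5 were positive, with a median of -0.14, and 0 were called by edgeR or DESeq2. At an unadjusted p under 0.05 by edgeR, 0 were higher (13.7% of all genes) and 2 lower (7.08% of all genes). Mki67, the proliferation marker Ki-67, read 493, 451, 507, 497 and 466 CPM in the rich tumours and 497, 447, 449.6, 451 and 587 CPM in the poor ones, a log2 fold change of -0.02 ± 0.09 (SE). The largest differences were those of Kif20a and Bub1, motor and checkpoint proteins of mitosis, at -0.35 and -0.26.

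Genes of glycolysis were lower in rich tumours. The 20 genes of the hypoxia and glycolysis list had 19 negative fold changes, with a median of -0.45 and 2 calls (Hk2 and Pfkl), beside 0.0681% of all genes. After these values were seen, 16 enzymes of the pathway were gathered: 15 were negative, 6 were called and 7 had no overlap, beside 0.787% of all genes. The median was -0.48, and it was -0.40 without shHrs tumour 4 and -0.54 without shCTL tumour 3.

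Summed over the 16 enzymes the level was 21195, 29820, 25920, 26791 and 30355 CPM in the rich tumours and 33003, 37131, 31763, 38893 and 37123 CPM in the poor ones, with no overlap. Gapdh, the dehydrogenase of the pathway's middle step, read 6335, 7740.4, 7080.5, 7319 and 8753 CPM in the rich tumours and 9701, 9959, 8897, 10658 and 10339.8 CPM in the poor ones, a log2 fold change of -0.45 ± 0.09 (SE). Its mean was 7446 ± 892 CPM (SD, n = 5) in the rich and 9911 ± 674 CPM (SD, n = 5) in the poor tumours, and the edgeR adjusted p was 0.0494. Pgam1, phosphoglycerate mutase, read 307, 402, 380.1, 431 and 442 CPM in the rich tumours and 564, 635, 573, 552 and 536 CPM in the poor ones, at -0.55 ± 0.11 (SE) with an edgeR adjusted p of 0.0494. Both separated the groups, and for each shHrs 4 was the lowest tumour.

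Pfkp and Pfkl, isoforms of the committing enzyme phosphofructokinase, had fold changes of -0.52 ± 0.11 (SE) and -0.60 ± 0.12 (SE), both with an edgeR adjusted p of 0.0494. Hk2, the hexokinase of many tumours, read 240.2, 398, 339, 284 and 354 CPM in the rich tumours and 402, 435, 358, 502 and 433 CPM in the poor ones. Pgk1, phosphoglycerate kinase, read 1191, 2556, 2264, 2239.9 and 2563 CPM in the rich tumours and 2440.2, 3249, 2592, 3288 and 3059.7 CPM in the poor ones, and Ldha, lactate dehydrogenase, read 1862, 2945, 2428, 2634 and 2929.99 CPM in the rich tumours and 2959.5, 3679, 2908, 3622 and 3596 CPM in the poor ones. For Pgk1 the value of shHrs 4 was far below all others, its adjusted p was 0.104 by edgeR, and the groups overlapped through shHrs 2. Eno2, the neuronal enolase, was the 1 enzyme with a positive value, 0.16.

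Other targets of low oxygen were less regular. Vegfa, the vessel growth factor, read 218, 356, 185, 292 and 206 CPM in the rich tumours and 267, 309.7, 348, 364 and 279 CPM in the poor ones, with shCTL 5 among the highest. Car9, a carbonic anhydrase, read 184, 409.5, 214, 278 and 273 CPM in the rich tumours and 250.2, 384, 354, 406 and 379 CPM in the poor ones, and Adm, adrenomedullin, read 22.9, 60.98, 36.7, 38.5 and 29.1 CPM in the rich tumours and 45.1, 29.3, 27.3, 77.4 and 54.6 CPM in the poor ones. For all 3 the groups overlapped widely. Per doubling of Ptprc the 16 enzymes had a median change of -0.10 log2 units within shCTL and -0.33 within shHrs tumours.

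The 150 bases before a RefSeq start (GRCm38.p6) of 3 of these enzymes are shown, with the core ACGTG (reverse CACGT) in capitals. Hypoxia inducible factors are known to bind this core. Where a gene had several windows, the first with a match is shown. They are chrX:106186950-106187099 for Pgk1, chr7:46845654-46845803 for Ldha and chr19:41911721-41911870 for Pgam1, all on the plus strand and 5′ to 3′; where both strands match, the letters overlap.
Pgk1: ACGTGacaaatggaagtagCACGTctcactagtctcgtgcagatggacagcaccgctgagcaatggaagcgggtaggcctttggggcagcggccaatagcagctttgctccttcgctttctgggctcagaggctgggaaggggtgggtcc
Ldha: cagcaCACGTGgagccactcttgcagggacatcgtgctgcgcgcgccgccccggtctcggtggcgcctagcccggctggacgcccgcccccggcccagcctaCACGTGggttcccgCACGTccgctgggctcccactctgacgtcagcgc
Pgam1: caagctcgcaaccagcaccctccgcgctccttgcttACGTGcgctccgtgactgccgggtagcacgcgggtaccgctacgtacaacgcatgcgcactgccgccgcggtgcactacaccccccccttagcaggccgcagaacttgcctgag
Of the 16 enzymes 7 held the core in any window of this kind, and 11.18% of all 32851 windows held it, both strands searched. Hk2, Aldoa, Pfkm and Pkm were the others. The count is per gene, over any of its windows, and the share is per window, so they cannot be compared directly. The core is short, and a match is again a description only.

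**Figure D4:**
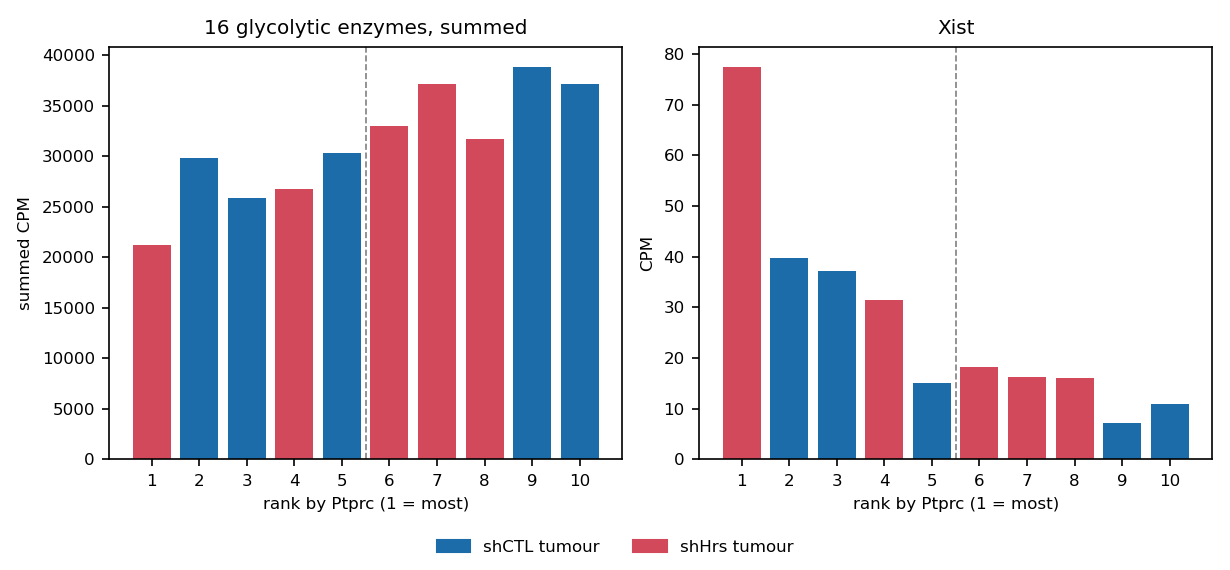
Summed CPM of 16 glycolytic enzymes (left) and CPM of Xist (right) in each tumour, as bars from most (rank 1) to least Ptprc (rank 10), shCTL in blue and shHrs in red. The 5 rich tumours lie at 21195 to 30355 summed CPM and the 5 poor ones at 31763 to 38893, while Xist is highest at rank 1 and lowest at rank 9.

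Xist, the RNA that coats the inactive X chromosome of female cells (chrX:103460366-103483254, GRCm38), was nearly absent from cultured B16F10 cells, at 0.556 CPM or less, and the hosts were female. It read 77.5, 39.8, 37.2, 31.4 and 14.995 CPM in the rich tumours and 18.2, 16.2, 16.1, 7.16 and 10.8 CPM in the poor ones, a mean of 40.2 ± 22.99 CPM (SD, n = 5) in the rich and 13.7 ± 4.55 CPM (SD, n = 5) in the poor tumours. The log2 fold change was 1.73 ± 0.30 (SE) with an edgeR adjusted p of 0.0494. The groups overlapped only in that shCTL 4 read under shHrs 2, shHrs 5 and shHrs 3. Xist does not tell leukocytes from other host cells such as fibroblasts or muscle.

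Most genes called higher were not measured in the melanoma cells alone. Of the 123, 86 (69.9%) stayed under 1 CPM in all 8 cultures, beside 1188 of all 13214 tested (8.99%). Of the 9 called lower, 0 did. With the limit at 0.5 CPM the shares were 58.5% and 6.45%. Culture and tumour differ in more than their host cells, and kind of sample and any difference in sequencing cannot be told apart.

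The 12 genes with the largest called rise and no overlap held several that belong to no list. Of the 12, Fxyd6, Stambpl1 and Zfp182 reached the count minimum of the filter in no poor tumour, so a difference was built into their selection. Fxyd6, a regulator of the sodium pump, read 2.56, 2.49, 3.35, 0.882 and 0.798 CPM in the rich tumours and 0.154, 0.201, 0.392, 0 and 0 CPM in the poor ones. Smoc2 and Spon1, secreted matrix proteins, had fold changes of 3.15 ± 0.51 (SE) and 2.78 ± 0.52 (SE). Smoc2 read 6.44, 5.43, 5.52, 4.45 and 2.11 CPM in the rich tumours and 1.18, 0.523, 1.37, 0.337 and 0.0583 CPM in the poor ones. They are named by the rule of size alone. Klra2, a receptor of the Ly49 family, read 7.06, 1.497, 2.07, 0.918 and 1.43 CPM in the rich tumours and 0.617, 0.563, 0.196, 0.2404 and 0.175 CPM in the poor ones, and reads of Ly49 genes can be shared between close relatives. Ncf4, a subunit of the phagocyte oxidase, read 10.1, 4.05, 2.96, 2.12 and 2.05 CPM in the rich tumours and 1.697, 1.01, 1.03, 0.385 and 0.0583 CPM in the poor ones, and Slamf9, a SLAM family receptor of myeloid cells, read 9.15, 2.94, 3.99, 2.68 and 3.14 CPM in the rich tumours and 1.49, 0.844, 2.06, 0.625 and 0.233 CPM in the poor ones.

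Adrbk2, a kinase of G protein coupled receptors, rose mainly in shHrs 4, at 6.903, 1.05, 0.986, 1.34 and 1.14 CPM against 0.977, 0.442, 0.784, 0 and 0.0583 CPM. The others were H2-Eb1, Zmynd15, Neurl3, Stambpl1 and Zfp182, at 2.99, 2.89, 2.59, 2.49 and 2.43. Stambpl1, a deubiquitinase related to the endosomal enzyme AMSH, read 2.61, 1.39, 1.48, 1.06 and 0.855 CPM in the rich tumours and 0.463, 0.241, 0.294, 0.337 and 0.0583 CPM in the poor ones. On the lower side 4 called genes had no overlap: Gapdh, Pgam1, Pfkp and Ppme1. Ppme1, which demethylates the phosphatase PP2A, read 104, 138, 123, 124 and 137 CPM in the rich tumours and 153, 168, 146, 174 and 167 CPM in the poor ones, a log2 fold change of -0.41 ± 0.08 (SE) (edgeR adjusted p 0.0494).

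Treatment and the Ptprc order were also fitted together. With the log2 CPM of Ptprc as a continuous term, 739 genes were called higher (5.59%) and 17 lower (0.129%), and of the genes called above 112 of the 123 higher and 1 of the 9 lower were shared. The lower gene was Pfkl, while Gapdh, Pgam1, Pfkp and Hk2 had adjusted p of 0.0764, 0.0657, 0.150 and 0.206 there by edgeR. An interaction, whether the relation with Ptprc differed between shHrs and shCTL tumours, was called for 1257 genes (9.51%), of which 405 were positive. With the rich and poor split in place of the continuous term, 0 were called by edgeR (592 at an unadjusted p under 0.05, 4.48%), and without shHrs tumour 4, the far end of the shHrs range, 0 were called (582 at an unadjusted p under 0.05). The calls of a difference between the treatments thus ended without 1 tumour.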

How the data were processed

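RNA of 10 tumours and 8 cultures was sequenced with a NEBNext Ultra kit on an Illumina HiSeq, per the labels' protocols. The authors deposited raw counts per gene symbol (23453 symbols, 18 libraries); the submitters' processing notes name STAR 2.4.0h2, DESeq and mm10 (counter, annotation and use of strand: not given in the sources used here). Reads of genes that overlap or lie antisense could therefore not be separated. Total counts were 17.6 to 27.7 M per tumour.

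From these counts, tumours were ranked by Ptprc over the column total, and the 5 highest were compared with the 5 lowest in R 4.3.3 by edgeR 4.0.16 (quasi-likelihood F test, two-sided, TMM, filterByExpr with minimum count 10, treatment as a term, Ptprc left out, Benjamini-Hochberg over 13214 genes, threshold 0.05). Standard errors are those implied by the F statistic. CPM use TMM-scaled sizes, and 2 was added to CPM before taking log2. DESeq2 1.42.0 and limma 3.58.1 (voom) were alternatives, as were other scalings, filters, terms, ranks and left-out tumours. The procedure was tested on simulated counts.

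The members, the 31 gene lists (529 genes; 9 symbols matched through an older one, 9 absent) and the 16 enzymes were chosen with earlier results of these data known. Genes were named by a rule: the 12 largest called rises and falls with no overlap and a mean log2 CPM of at least 1 (predicted genes left out), up to 4 called members per list, and a set of genes whatever their result; Xist, glycolytic enzymes and further list members were picked after their values were seen. Positions are of GENCODE M21 on GRCm38, promoters of RefSeq. The labels call the tumours biological repeats, but nothing says that they came from separate animals. The p-values take the tumour as the unit and tell of an association with the Ptprc order, itself measured in these samples.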

Additional observations from a re-analysis of the deposited data

Results flagged for a closer look

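Within the 5 rich or the 5 poor tumours, 21 of 234 levels had 1 tumour far from the other 4 by Dixon's criterion. Chance gives about 1 in 20 for a single level. The levels share the same tumours and are not independent, so this rate does not judge the count. Levels are log2(CPM + 2), and for a list the mean over its genes. Most of these concerned shHrs tumour 4. That tumour was the extreme of the Ptprc rank that formed the groups, so its high leukocyte levels are no separate finding. It was above the other rich tumours for Cd3e (2.45), Foxp3 (2.45), Gzmb (3.00), Nkg7 (2.98), Ifng (1.44), Ccl5 (4.94), Cd48 (3.58), Ebi3 (2.58), Slamf9 (3.48) and Adrbk2 (3.15). It was also above them for the T cell list (2.12) and the natural killer and cytotoxic list (1.89). It was below them for the glycolytic enzymes Pgk1 (10.22) and Tpi1 (10.40). The other 4 rich tumours were at 1.28 to 1.43 for Cd3e and at 11.13 to 11.32 for Pgk1.

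Single other tumours stood apart less often. The tumour shHrs 1 had the highest total count of the rich group, 27.7 M, and the highest keratinocyte list (1.23). Among poor tumours, shCTL 3 was lowest for Cxcl10 (5.22), shHrs 5 alone had counts of Ifng (1.11), and shCTL 1 was highest for S100a8 (1.42) and for the immediate early and heat shock list (6.02). The tumour shHrs 2 was highest for the lymphoid tissue and lymphatic stroma list (1.61).

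For 7 of the named genes edgeR's test of an interaction found that the slope on Ptprc differed between treatments, in log2 units per doubling of Ptprc, as the slope in shHrs minus that in shCTL tumours. The differences were 0.67 for H2-Eb1, 0.78 for Foxp3 and 0.32 for Hgs on the positive side. On the negative side they were -0.69 for Eno1, -0.48 for Aldoc, -0.43 for Pgk1 and -0.29 for Pgam1. The interaction had 0 calls over all genes without shHrs tumour 4.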

How the results depend on the processing

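The number of called genes depended on the fit. Beside 123 higher and 9 lower genes, DESeq2 called 909 and 248, edgeR without the low-count filter 674 and 42, the 3 highest against the 3 lowest tumours 650 and 29, and Ptprc as a continuous term 739 and 17. A rank from the pan-leukocyte list gave 48 and 0, and slopes on Ptprc gave 205 and 0 within shCTL and 1716 and 1795 within shHrs tumours. limma voom, DESeq2 size factors in edgeR, a fit without the treatment term and one without the highest and lowest tumours gave 0 and 0 each, with 1032 to 1754 higher genes at an unadjusted p under 0.05. Leaving out 1 tumour gave 0 to 709 higher and 0 to 89 lower (651 and 67 without shCTL 4, 709 and 89 without shHrs 1, otherwise 0). In those leave-outs, and without the highest and lowest tumours, all 123 genes kept a positive and all 9 a negative sign. The median of the 123 was 1.33 to 2.30. These genes were chosen for their differences in the same tumours, so kept signs were favoured in advance and are no separate support. The replicate block gave 0 and 0 (922 and 202 unadjusted), but the tumours share only a number: same-numbered tumours had correlations of -0.20, -0.13, 0.47, -0.15 and -0.60. Over 19 alternatives the median was 1.19 to 2.65 for the macrophage, 1.32 to 3.50 for the MHC class II and -0.53 to -0.32 for the hypoxia and glycolysis list. The cause of the changes was not tested.

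Some values near 0 changed sign. With the replicate block Cd3e was -0.087, Cd79a -0.049, Foxp3 -0.054, Mki67 0.052, Mlana -0.023 and Pmel -0.15. Within shCTL tumours Beta-s was 0.023, Cd79a -0.037, Foxp3 -0.13, Hgs -0.038 and Pmel -0.018, and within shHrs tumours Mki67 was 0.040. With the pan-leukocyte rank Beta-s was 0.24, Mki67 0.041, the Schwann cell list 0.49 and the pigmentation list 0.078; with 3 against 3 tumours these lists were 0.56 and 0.076. Without the highest and lowest tumours Cd3e was -0.25, Cd79a -0.10, Eno2 -0.10, Foxp3 -0.25, Mki67 0.087, Pdcd1 -0.23 and Pmel -0.041. Leaving out 1 tumour gave ranges of -0.038 to 0.50 for Cd79a, -0.000338 to 0.42 for Eno2 and -0.29 to 0.36 for Foxp3, all negative without shHrs 4. The ranges were -0.062 to 0.086 for Mki67, -0.051 to 0.12 for Pmel, -0.12 to 0.32 for the Schwann cell list, -0.53 to 0.22 for the immediate early and heat shock list and -2.51 to 0.397 M for the total count of the Ptprc groups (rich minus poor). The share of called genes under 0.5 CPM in cultures was 58.5%. The interaction had 0 calls with the split and 0 without shHrs tumour 4.

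Of the gene values under the alternatives, 990 kept direction and call, 593 lost the call, 127 gained one and 28 changed sign. Leukocyte genes at a few CPM or less, T and B cell genes above all, rest on few counts per tumour.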
